A study of Mus musculus with 4 samples.

Results

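The SR proteins and the heterogeneous nuclear ribonucleoproteins (hnRNPs) are the main families of RNA-binding proteins that steer the splicing of mRNA. The 31 genes described here, 11 SR protein genes and 20 hnRNP genes, are all the mouse protein-coding genes whose symbol is Srsf followed by a number or begins with Hnrnp, out of 33684 genes with a symbol in the data and 20725 protein-coding ones. They were chosen by name and not by any measured value, though with earlier results of these data known. Each gene was read through its isoforms, of which the tables hold 217 and 211 in the liver libraries labelled Adar1-/- Mavs-/- and Adar1-/-, and 56 and 40 in the embryo libraries of those genotypes.

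Total RNA was sequenced from 4 mouse libraries, 1 per group. The groups are embryonic livers at E15.5 (embryonic day) with the strain label C57B6/J, labelled Adar1-/- Mavs-/- and Adar1-/-, and whole embryos at E11.5 with the strain label C57B16/N, labelled Adar1-/- Mavs-/- and Adar1-/-. All 4 groups lack Adar1 by their labels and no wild-type library was analysed here, so the comparison in each tissue asks what differs when Mavs is lost in addition to Adar1. ADAR1, encoded by Adar, edits adenosines of double-stranded RNA to inosines. MAVS relays signals from the cytoplasmic RNA sensors RIG-I and MDA5. The sources used here do not give the structure of the deleted alleles or the number of animals behind each library.

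SR proteins carry domains rich in arginine and serine, bind exonic enhancer sequences and mostly promote the use of the exons they bind. Many hnRNPs, which coat nascent transcripts, counter them by repressing exons, and both families also act in mRNA export, stability and translation. Members of both families limit their own amounts by splicing their pre-mRNA into forms with an early stop codon, which nonsense-mediated decay (NMD) degrades, or into forms that keep an intron.

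With 1 library per group the spread between animals is unknown, so there are no p-values and each comparison is between 2 libraries. Levels are FPKM (fragments per kilobase of transcript, scaled to the mapped fragments of each library), summed over the isoforms of a gene, and take account of length, so that genes can be set side by side. The ranges in brackets are the deposited confidence bounds, which cover the estimation within a library only. Differences are log2 ratios of FPKM plus 1, with the library labelled Adar1-/- Mavs-/- on top and that labelled Adar1-/- below it, after the values on top were multiplied by 0.995 in liver and 1.34 in embryos. Genes of at least 1 FPKM in either library and above 0 in both were counted, and those past a log2 ratio of 1 or -1 are called 2-fold. An exact 0 can be a failed estimate, so for such genes the text says that they are listed at 0 and gives no fold. In these bulk samples, fewer cells of a type and less RNA per cell cannot be told apart.

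The labels were checked first. Adar had 4.11 FPKM (3.86 to 4.36) in liver in the library labelled Adar1-/- Mavs-/-, with 3 of its 8 annotated reference isoforms above 0. It had 5.56 FPKM (5.28 to 5.84) in the liver library labelled Adar1-/-, where none of the 8 was above 0. The value there came from its other isoforms, assembled or with identifiers outside the annotation. Mavs had 9.96 FPKM in the liver library labelled Adar1-/- Mavs-/- and 7.26 FPKM in that labelled Adar1-/-, which goes against the first label if the deletion removes the transcript. Under the same condition for Adar, its values above 0 go against both liver labels. The liver libraries are therefore named by their labels throughout. The embryo tables reach chromosomes 10, 11 and the first 11.7 Mb of chromosome 12 in both libraries, and for embryos neither Adar nor Mavs was analysed here. All 10 hepatocyte markers were counted in liver, with a sum of 14225 FPKM in the library labelled Adar1-/- Mavs-/- and 12318 FPKM in that labelled Adar1-/-. Coverage per FPKM, which follows depth, was 7.13 and 8.58 in these liver libraries and 5.62 and 3.48 in the embryo Adar1-/- Mavs-/- and Adar1-/- libraries.

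Isoforms annotated as NMD targets held 14.8% of the members' summed FPKM in the liver library labelled Adar1-/- Mavs-/- and 16.3% in that labelled Adar1-/-. For 5 of them, the stretch of coding sequence that ends in the annotated stop codon is shown here because the isoform results turn on it. They come from the GENCODE M21 transcripts (build GRCm38), run 5′ to 3′ along the transcript in lower case from at most 120 bases before the end of the stop codon, all within the exon that holds it, and the stop codon is in capitals. The genes lie on chromosome 11 (Srsf1, plus strand), chromosome 17 (Srsf3, plus strand), chromosome 2 (Srsf6, plus strand), chromosome 1 (Hnrnpu, minus strand) and chromosome 7 (Hnrnpl, plus strand).
Srsf1-204: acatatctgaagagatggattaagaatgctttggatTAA
Srsf3-201: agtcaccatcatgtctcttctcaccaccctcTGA
Srsf6-201: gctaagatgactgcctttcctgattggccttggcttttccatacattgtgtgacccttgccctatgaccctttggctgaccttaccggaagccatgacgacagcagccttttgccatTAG
Hnrnpu-206: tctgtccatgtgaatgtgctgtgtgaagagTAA
Hnrnpl-213: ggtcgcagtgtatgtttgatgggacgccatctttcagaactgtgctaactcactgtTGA
In none of these 5, which were chosen to be shown, does the exon with the stop occur whole in an isoform of the gene that is annotated as protein coding. In Srsf2-202 and Hnrnpd-208, which are not shown, it does. That exon has 119 bases in Srsf1-204, 456 in Srsf3-201, 268 in Srsf6-201, 71 in Hnrnpu-206 and 70 in Hnrnpl-213. The stop lies before the last exon junction by 80 bases in Srsf1-204, 548 in Srsf3-201, 534 in Srsf6-201, 183 in Hnrnpu-206 and 842 in Hnrnpl-213. Srsf3-201 is 1919 bases long in the deposited tables and 2594 in this annotation, so its deposited form may differ from the one shown, and the other 4 have the same length in both.

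The 28 genes counted in liver gave a sum of 1310 FPKM in the liver library labelled Adar1-/- Mavs-/-, against 1527 FPKM in that labelled Adar1-/-. Of the 28, 18 had a lower value in the library labelled Adar1-/- Mavs-/- and 10 a higher one, with a median log2 ratio of -0.27 and a range from -3.12 to 0.76. Over all 12787 genes counted the median was -0.13, with quartiles of -0.52 and 0.23. None of the members was at least 2-fold higher, where 2.71% of all genes were, and 9.45% of all genes were 2-fold in either direction. The 3 members at least 2-fold lower, Srsf9, Hnrnpa2b1 and Hnrnpa0, are 10.7% of the 28, where 6.74% of all genes were as much lower. The SR proteins (10 counted, median -0.20, 1 of them 2-fold lower) and the hnRNPs (18 counted, median -0.30, 2 of them 2-fold lower) gave similar medians. After scaling, the FPKM bounds of the 2 libraries overlapped for Hnrnpdl, Hnrnpl and Srsf6 and for no other counted member, but these bounds hold no difference between animals.

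**Figure D1:**
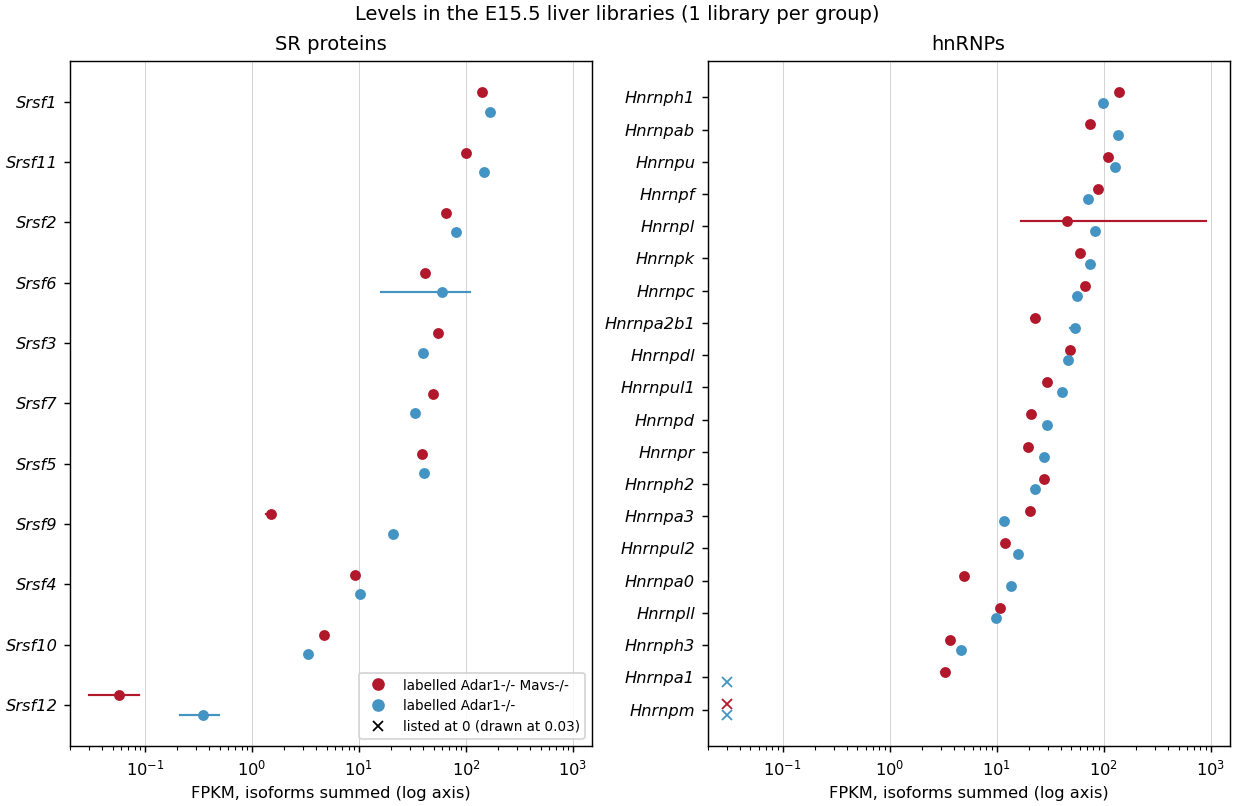
FPKM of each SR protein gene and hnRNP gene in the 2 liver libraries, isoforms summed, on a log axis, with the deposited bounds as lines (most are shorter than the dots) and genes ordered by their higher value. Srsf9, Hnrnpa2b1 and Hnrnpa0 show the widest gaps among the genes above 1 FPKM in both libraries, and Hnrnpl and Srsf6 the widest bounds.

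The value of a gene also depends on which isoforms the fragments were assigned to. Cufflinks assembled long isoforms at many of these loci, and since FPKM divides by length, the same fragments give a low FPKM on a long isoform and a high one on a short isoform. A second measure, the fragment amount (FPKM times isoform length in kilobases, summed over the isoforms of the gene), is not divided by length. It was chosen after the FPKM values were seen. Fragment amounts were scaled by a factor of their own, 1.096 in liver and 1.46 in embryos. Part of the change between the measures comes from this factor. Hnrnpf, read on the same isoform in both libraries, went from 0.31 by FPKM to 0.45 by fragment amount. By this measure the median of the 28 members was 0.10, where that of all genes counted was -0.10. Of the 28, 15 were above 0, 5 had a sign opposite to that by FPKM, Hnrnpa0 was 2-fold lower (-1.27), and Hnrnpd (1.09) and Hnrnph1 (1.01) were 2-fold higher. All genes counted by fragment amount were 2-fold lower in 6.69% and 2-fold higher in 2.53%. After this scaling, the lower FPKM of the members as a group is therefore not seen in their fragment amounts.

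**Figure D2:**
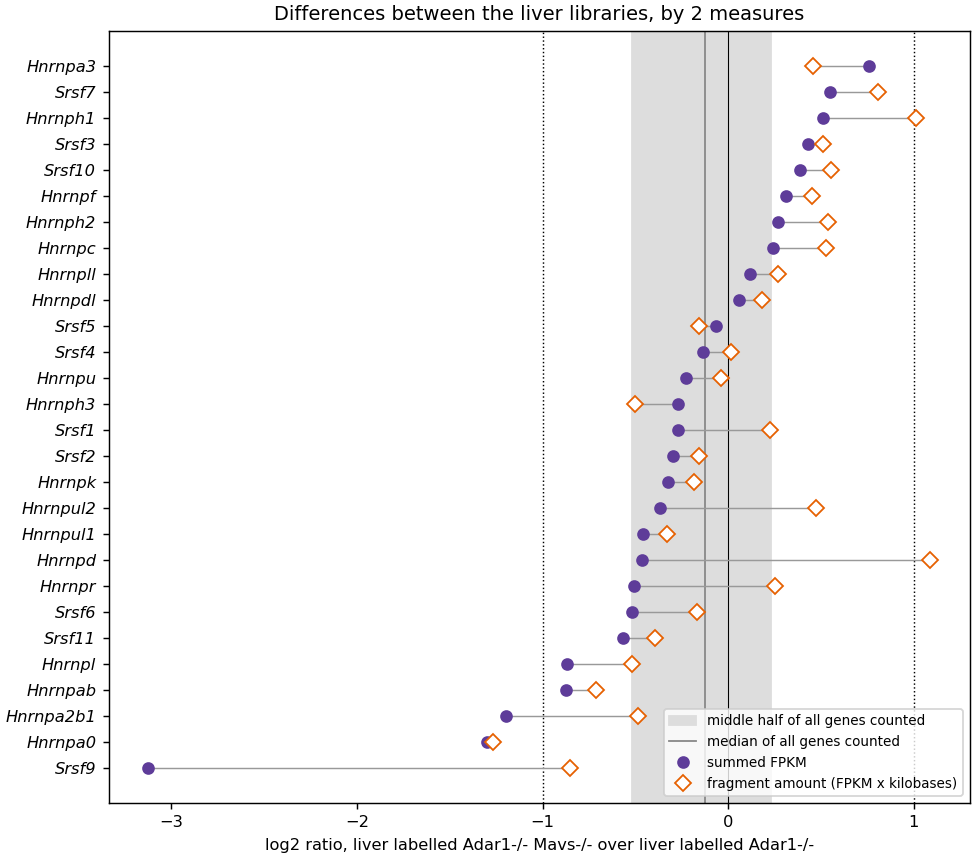
Log2 ratio of the liver library labelled Adar1-/- Mavs-/- over that labelled Adar1-/- for the 28 members counted, by summed FPKM (dots) and by fragment amount (diamonds), joined by a line. The grey band holds the middle of all genes counted by FPKM, from -0.52 to 0.23, and the dotted lines mark 2-fold. Srsf9 moves from -3.12 to -0.85 between the measures, and Hnrnpa0 stays at -1.30 and -1.27.

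Among the SR proteins that bind exonic enhancers, Srsf1, the founding member (chr11:87860875-87867257 in mm9), was the most abundant. It had 140.4 FPKM (137.4 to 143.3) in liver in the library labelled Adar1-/- Mavs-/- and 168.9 FPKM (165.4 to 172.5) in that labelled Adar1-/-, a log2 ratio of -0.27 by FPKM, 0.23 by fragment amount and 0.50 with isoforms of status OK alone. Srsf2, also called SC35 and a marker of nuclear speckles, had 65.3 FPKM (63.7 to 66.8) and 79.99 FPKM (78.4 to 81.5) in the same order of libraries, a log2 ratio of -0.30. Srsf6 had 41.2 FPKM (40.0 to 42.4) in the library labelled Adar1-/- Mavs-/-, against 59.2 FPKM in that labelled Adar1-/-, where the bounds ran from 15.95 to 109.6 and take in the first value. Srsf5 had 38.5 FPKM in the library labelled Adar1-/- Mavs-/- and 40.2 FPKM in that labelled Adar1-/- (-0.07). Srsf4, at 9.25 and 10.2 FPKM in the same libraries (-0.14), was read on assembled isoforms in both.

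Srsf3 and Srsf7, small SR proteins that also serve as adaptors for the mRNA export receptor NXF1, both had higher values in the liver library labelled Adar1-/- Mavs-/-. Srsf3 had 54.3 FPKM (52.9 to 55.6) there and 39.8 FPKM (38.8 to 40.9) in the library labelled Adar1-/-, a log2 ratio of 0.43 by FPKM and 0.51 by fragment amount. Srsf7 had 49.3 FPKM (47.6 to 51.1) in the library labelled Adar1-/- Mavs-/- and 33.3 FPKM (32.0 to 34.7) in that labelled Adar1-/-, a log2 ratio of 0.55 by FPKM and 0.81 by fragment amount. Srsf10, a splicing repressor when dephosphorylated, had 4.72 FPKM (4.56 to 4.87) in the library labelled Adar1-/- Mavs-/- and 3.35 FPKM (3.16 to 3.54) in that labelled Adar1-/- (0.39), on assembled isoforms alone. These differences stayed above 0 in each alternative in which the gene was counted, though none reached 2-fold by either measure. Srsf10 was counted in 9 of the 11 settings. Some of these settings cannot change a sign.

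Srsf11 and Srsf9 stood on the lower side. Srsf11, which associates with the U2AF factor at 3′ splice sites, had 100.01 FPKM (97.2 to 102.9) in liver in the library labelled Adar1-/- Mavs-/- and 147.9 FPKM (144.8 to 151.0) in that labelled Adar1-/-, a log2 ratio of -0.57. Most of this was the retained-intron isoform Srsf11-207, with 80.1 and 120.6 FPKM in the same libraries. Srsf9 (chr5:115777186-115783089 in mm9) had 1.49 FPKM (1.35 to 1.64) in the library labelled Adar1-/- Mavs-/- and 20.7 FPKM (19.3 to 22.0) in that labelled Adar1-/-, a log2 ratio of -3.12. In the first library its reference isoforms were all listed at 0 and the value came from an assembled isoform of 6169 bases. In the second it came from the coding isoforms Srsf9-204 (12.7 FPKM) and Srsf9-201 (7.95 FPKM), which are 767 and 1162 bases long. By fragment amount the log2 ratio of Srsf9 was -0.85. Srsf12 had 0.06 FPKM in the library labelled Adar1-/- Mavs-/- and 0.35 FPKM in that labelled Adar1-/- and was not counted.

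The hnRNPs of the A and B type bind exonic and intronic silencers and repress exons. Hnrnpa0, a gene without introns (chr13:58227240-58229917 in mm9), had 4.98 FPKM (4.66 to 5.30) in liver in the library labelled Adar1-/- Mavs-/- and 13.7 FPKM (13.2 to 14.2) in that labelled Adar1-/-, a log2 ratio of -1.30. It is held as a single isoform of 2678 bases, of status OK in both libraries and overlapped by no other isoform, so its value does not depend on how fragments were split. Hnrnpa2b1 had 22.9 FPKM (21.1 to 24.7) in the library labelled Adar1-/- Mavs-/- and 53.7 FPKM (48.4 to 59.0) in that labelled Adar1-/-, a log2 ratio of -1.20 by FPKM and -0.49 by fragment amount. Its longer coding isoform Hnrnpa2b1-203 was at 22.9 and 23.0 FPKM in these libraries. Among its own isoforms, the whole difference lay in the shorter coding isoform Hnrnpa2b1-201, listed at 0 in the first and at 30.7 FPKM in the second. Its locus was overlapped by isoforms not assigned to it, led by long assembled ones assigned to Cbx3. Their fragment amounts were 208.9 and 139.7 in the same order of libraries. How fragments were split between these genes was not tested. Hnrnpab, which is related to the D type, had 74.6 FPKM (71.3 to 77.8) in the library labelled Adar1-/- Mavs-/- and 137.0 FPKM (131.7 to 142.2) in that labelled Adar1-/-. Its log2 ratio was -0.88 by FPKM and -0.71 by fragment amount, and the same 3 coding isoforms were above 0 in both libraries. With isoforms of status OK alone it was 0.058, since its main isoform Hnrnpab-203 (39.5 FPKM in the library labelled Adar1-/- Mavs-/- and 80.01 FPKM in that labelled Adar1-/-) has that status in the first library and LOWDATA in the second.

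Hnrnpa3 went the other way, with 20.5 FPKM (20.01 to 20.9) in liver in the library labelled Adar1-/- Mavs-/- and 11.6 FPKM (11.3 to 11.98) in that labelled Adar1-/-. Its log2 ratio of 0.76 was the highest of the members by FPKM and was 0.46 by fragment amount. Hnrnpa1, the best studied repressor of the group, had 3.28 FPKM in the library labelled Adar1-/- Mavs-/-, all on long assembled isoforms at a locus shared with its neighbour Nfe2, and was listed at 0 in that labelled Adar1-/-, where 1 of its reference isoforms has the status FAIL. Among all genes of at least 1 FPKM in either liver library, 3.44% stood at 0 in the library labelled Adar1-/- Mavs-/- and 4.08% in that labelled Adar1-/-. Hnrnpa1 and Hnrnpa3 have near-identical processed copies in the genome, and the sources used here do not say how reads that match several places were treated, so their values are uncertain.

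The H and F hnRNPs bind runs of guanine. Hnrnph1 had 140.4 FPKM (137.2 to 143.6) in liver in the library labelled Adar1-/- Mavs-/-, level with Srsf1 there, and 97.7 FPKM (95.1 to 100.2) in that labelled Adar1-/-, a log2 ratio of 0.51. In both libraries none of this lay on an isoform annotated as protein coding. The leading isoform, Hnrnph1-215 (870 bases), had 110.4 and 86.2 FPKM in the same libraries. Hnrnpf had 89.1 FPKM (87.5 to 90.6) in the library labelled Adar1-/- Mavs-/- and 71.3 FPKM (70.1 to 72.6) in that labelled Adar1-/- (0.31), on the same coding isoform in both. Hnrnph2 had 27.9 FPKM in the library labelled Adar1-/- Mavs-/- and 23.0 FPKM in that labelled Adar1-/- (0.27). Hnrnph3 had 3.67 and 4.62 FPKM in the same libraries (-0.27), on assembled isoforms. The sequences of Hnrnph1, Hnrnph2 and Hnrnpf are alike, so some of their reads may be shared.

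Hnrnpu, a chromatin-bound scaffold protein, and Hnrnpc, which binds runs of uridine and keeps cryptic exons out of mRNA, are among the abundant nuclear hnRNPs. Hnrnpu had 109.2 FPKM (107.6 to 110.8) in liver in the library labelled Adar1-/- Mavs-/- and 127.6 FPKM (126.0 to 129.2) in that labelled Adar1-/-, a log2 ratio of -0.23 by FPKM and -0.04 by fragment amount. Hnrnpc had 66.7 and 56.0 FPKM in these libraries (0.24), Hnrnpul1 29.8 and 41.2 FPKM (-0.46), and Hnrnpul2 11.99 and 15.7 FPKM (-0.37). Hnrnpk, which binds runs of cytosine, had 59.5 FPKM in the library labelled Adar1-/- Mavs-/- and 74.4 FPKM in that labelled Adar1-/- (-0.32).

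Hnrnpl, which binds CA repeats, had 45.0 FPKM in the liver library labelled Adar1-/- Mavs-/- and 82.5 FPKM in that labelled Adar1-/- (-0.87). In the first library 7 of its 14 isoforms have the status FAIL and the summed bounds ran from 17.0 to 909.5 FPKM, so that this value is poorly determined. Its relative Hnrnpll, a regulator of splicing in lymphocytes, had 10.7 and 9.76 FPKM in the same libraries (0.12). Hnrnpd, also called AUF1 and known for destabilising mRNAs with AU-rich elements, had 21.1 FPKM in the library labelled Adar1-/- Mavs-/- and 29.3 FPKM in that labelled Adar1-/- (-0.46). Its fragment amount pointed the other way (1.09), and an assembled isoform of 13566 bases was above 0 in the library labelled Adar1-/- Mavs-/-. Hnrnpdl had 48.5 and 46.4 FPKM in these libraries (0.06), and Hnrnpr 19.4 and 27.9 FPKM (-0.51 by FPKM, 0.25 by fragment amount). Hnrnpm was listed at 0 in both libraries. Assembled isoforms without a symbol cover its locus, the leading one with 8.87 FPKM over 36588 bases in the library labelled Adar1-/- Mavs-/- and 3.75 FPKM over 17912 bases in that labelled Adar1-/-.

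For 12 members at least 80% of the fragment amount in each liver library lay on reference isoforms above 0 in both, a limit chosen after the values were seen. These are Srsf1, Srsf2, Srsf6, Srsf11, Hnrnpa0, Hnrnpab, Hnrnpc, Hnrnpdl, Hnrnpf, Hnrnpk, Hnrnpu and Hnrnpul1. Their median log2 ratio by FPKM was -0.31, and Hnrnpa0 was the 1 member of them at least 2-fold lower. Over every liver alternative in which the member was counted, 10 of the 28 members stayed below 0, namely Srsf2, Srsf6, Srsf9, Srsf11, Hnrnpa0, Hnrnpa2b1, Hnrnph3, Hnrnpl, Hnrnpu and Hnrnpul1. Another 5 stayed above 0, namely Srsf3, Srsf7, Srsf10, Hnrnpa3 and Hnrnph1, and 13 had both signs. Of the 11 settings, the main one included, Srsf9, Hnrnph3 and Srsf10 were counted in 9. Srsf2, Hnrnpl and Hnrnpul1 were counted in 10. Srsf9 had no ratio on reference isoforms alone or with status OK alone. The share of all genes that keep their sign was not computed.

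Isoforms annotated as NMD targets or as retaining an intron held 27.0% of the members' summed FPKM in the liver library labelled Adar1-/- Mavs-/- and 33.4% in that labelled Adar1-/-. For the SR proteins these shares were 49.0% and 57.6% in the same libraries, and for the hnRNPs 13.3% and 17.5%. Retained-intron isoforms of SR proteins held 28.3% in the library labelled Adar1-/- Mavs-/- and 40.7% in that labelled Adar1-/-, NMD isoforms 20.7% and 16.9%, and assembled isoforms 9.39% and 5.24%. By fragment amount the NMD and retained-intron share of the SR proteins was 26.7% in the library labelled Adar1-/- Mavs-/- and 33.6% in that labelled Adar1-/-. Of the 63 member isoforms above 0 in the library labelled Adar1-/- Mavs-/-, 43 have the status OK, against 41 of 65 in that labelled Adar1-/-, and the others are mostly marked LOWDATA. In embryos the direction was the opposite. The SR protein share there was 50.1% of FPKM in the Adar1-/- Mavs-/- library and 38.8% in the Adar1-/- library (32.8% and 26.4% by fragment amount). It rests on few genes, with Srsf5 held in the first library only. The share over all genes was not computed in either tissue.

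**Figure D3:**
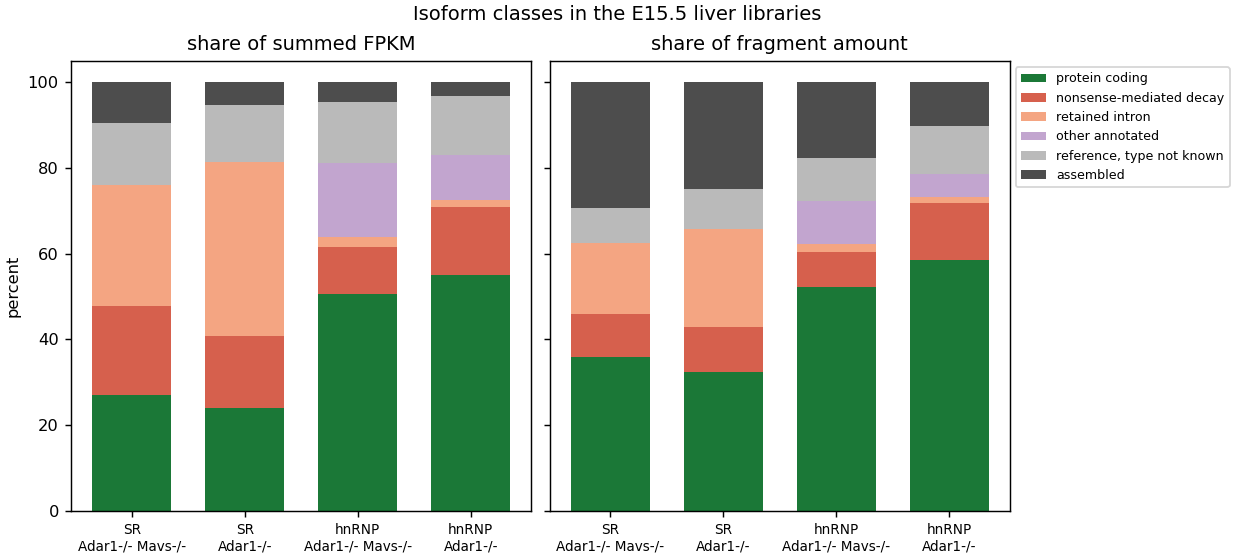
Share of the summed FPKM (left) and of the fragment amount (right) of SR proteins and hnRNPs in each isoform class in the 2 liver libraries, with the library labelled Adar1-/- Mavs-/- left of that labelled Adar1-/-. NMD and retained-intron isoforms hold 49.0% and 57.6% of the SR protein FPKM in these libraries, and assembled isoforms take a larger share by fragment amount than by FPKM.

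Srsf1 differed in the classes of its isoforms. Its NMD isoform Srsf1-204, whose stop stretch is shown above, had 69.5 FPKM (66.8 to 72.2) in liver in the library labelled Adar1-/- Mavs-/- and 45.5 FPKM (43.4 to 47.6) in that labelled Adar1-/-, which are 49.5% and 26.9% of the gene. The retained-intron isoform Srsf1-203 was listed at 0 in the library labelled Adar1-/- Mavs-/- and had 61.6 FPKM (59.0 to 64.3) in that labelled Adar1-/-. The main coding isoform Srsf1-201 was nearly level, at 44.3 FPKM (43.2 to 45.4) and 43.4 FPKM (42.4 to 44.4). In embryos Srsf1-204 had 35.0 FPKM (32.8 to 37.2) in the Adar1-/- Mavs-/- library and was listed at 0 in the Adar1-/- library, while Srsf1-203 had 52.1 FPKM (49.2 to 55.0) and 104.4 FPKM (99.2 to 109.6), or 33.7% and 46.7% of the gene. In both tissues the NMD isoform thus held a larger share, and the retained-intron isoform a smaller one, in the library labelled Adar1-/- Mavs-/-. Both isoforms have the status LOWDATA in all 4 libraries.

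The other genes with a shown stretch differed among themselves. Srsf3-201 had 24.4 FPKM (23.4 to 25.4) in liver in the library labelled Adar1-/- Mavs-/- and 18.5 FPKM (17.7 to 19.3) in that labelled Adar1-/-, and its share of the gene was similar, at 45.0% and 46.5%. Srsf6-201 had 10.7 FPKM (9.92 to 11.51) in the library labelled Adar1-/- Mavs-/- and 38.2 FPKM in that labelled Adar1-/-, where the bounds ran from 0 to 84.4. The coding isoform Srsf6-203 was at 20.7 and 21.002 FPKM in these libraries. Hnrnpu-206 had 44.2 FPKM (43.1 to 45.4) in the library labelled Adar1-/- Mavs-/- and 66.7 FPKM (65.4 to 67.9) in that labelled Adar1-/-, whereas the coding isoform Hnrnpu-201 had 65.0 FPKM (63.9 to 66.1) and 61.0 FPKM (60.0 to 62.0). Among its own isoforms, the lower sum of Hnrnpu in the library labelled Adar1-/- Mavs-/- therefore lay in the NMD isoform. Isoforms not assigned to Hnrnpu, led by long assembled ones assigned to Cox20, overlapped its locus. Their fragment amounts were 267.9 in that library and 108.3 in that labelled Adar1-/-. How fragments were split between these genes was not tested. Hnrnpl-213 was listed at 0 with an upper bound of 92.8 FPKM in the library labelled Adar1-/- Mavs-/- and had 24.4 FPKM (23.4 to 25.4) in that labelled Adar1-/-.

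**Figure D4:**
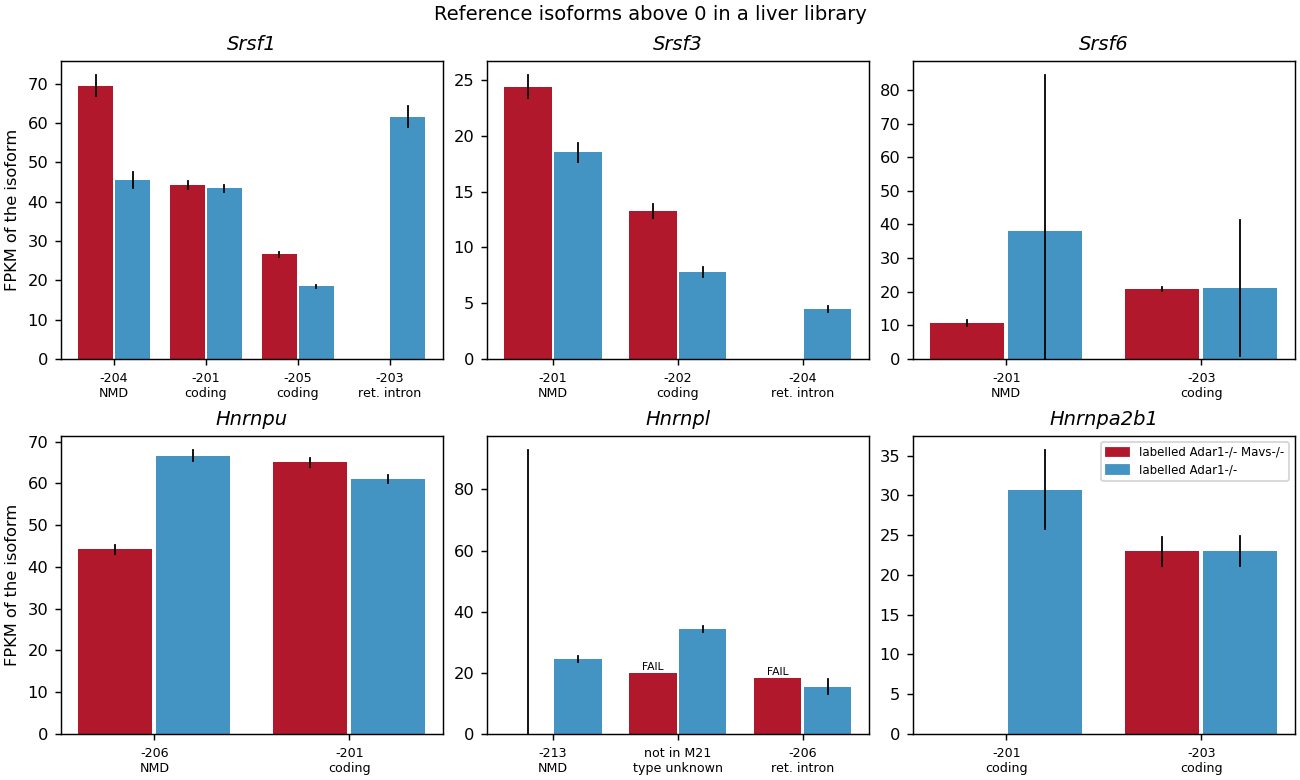
FPKM of the reference isoforms above 0 in a liver library for 6 members, with the deposited bounds as lines and FAIL where the estimate failed and no bound is drawn (NMD: nonsense-mediated decay; ret. intron: retained intron). The bars of Srsf1-203 and Hnrnpa2b1-201 stand in the library labelled Adar1-/- alone, at 61.6 and 30.7 FPKM, and the coding isoforms Srsf1-201 and Hnrnpa2b1-203 have nearly equal bars.

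In other members the shift was between coding isoforms. Hnrnpr-204 was listed at 0 in the liver library labelled Adar1-/- Mavs-/- and had 11.4 FPKM in that labelled Adar1-/-, while Hnrnpr-202 had 13.6 and 10.9 FPKM. Hnrnph2-201 was likewise listed at 0 in the library labelled Adar1-/- Mavs-/- and had 7.31 FPKM in that labelled Adar1-/-, and Hnrnph2-205 had 27.9 and 15.6 FPKM. Hnrnpd was read on the NMD isoform Hnrnpd-208, with 17.8 FPKM in the library labelled Adar1-/- Mavs-/- and 29.3 FPKM in that labelled Adar1-/-. Srsf5 was read on the retained-intron isoform Srsf5-212, with 38.5 and 34.3 FPKM in the same libraries. Hnrnph1 was read, in liver and in embryos, on no isoform annotated as protein coding. A member's FPKM is therefore not in each case the level of an mRNA that encodes its full protein.

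The embryo tables hold 5 members in both libraries, Srsf1, Srsf2, Hnrnpab, Hnrnph1 and Hnrnph3, and 4 of them were counted. None of the 4 was 2-fold higher or lower, where 11.0% of the 1801 genes counted were (4.16% higher and 6.83% lower). Srsf1 had 154.7 FPKM (150.4 to 159.0) in the Adar1-/- Mavs-/- library and 223.4 FPKM (213.1 to 233.8) in the Adar1-/- library, a log2 ratio of -0.11 after scaling. Srsf2 had 67.1 FPKM (65.0 to 69.2) in the Adar1-/- Mavs-/- library and 130.1 FPKM (125.6 to 134.7) in the Adar1-/- library, a log2 ratio of -0.53. Its NMD isoform Srsf2-202 was at 37.6 and 32.8 FPKM in these libraries, which are 56.0% and 25.2% of the gene. Hnrnpab had 255.8 FPKM (252.0 to 259.6) in the Adar1-/- Mavs-/- library and 265.4 FPKM (260.5 to 270.4) in the Adar1-/- library (0.36). Hnrnph1 had 110.3 FPKM (107.0 to 113.5) in the Adar1-/- Mavs-/- library and 113.9 FPKM (109.4 to 118.3) in the Adar1-/- library (0.37).

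The median of the 4 was 0.13, beside -0.11 for all genes counted, and the sign of each of the 4 differed between settings. The scaling factor of 1.34 is large beside these differences. With FPKM as deposited, Hnrnpab was at -0.05, Hnrnph1 at -0.05, Srsf1 at -0.53 and Srsf2 at -0.94. Hnrnph3 had 2.15 FPKM (1.86 to 2.43) in the Adar1-/- Mavs-/- library and was listed at 0 in the Adar1-/- library, as were 2.56% of all genes of at least 1 FPKM in either embryo library, against 3.34% in the Adar1-/- Mavs-/- library. Srsf5 had 26.8 FPKM in the Adar1-/- Mavs-/- library, and its locus lies beyond the part shared with the Adar1-/- table.

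Among the 4 members counted in embryos, Hnrnpab differed most between the tissues. It had 74.6 FPKM in liver and 255.8 FPKM in embryos in the libraries labelled Adar1-/- Mavs-/-, and 137.0 and 265.4 FPKM in those labelled Adar1-/-. Srsf2 had 65.3 FPKM in liver and 67.1 FPKM in embryos in the libraries labelled Adar1-/- Mavs-/-, with overlapping bounds, and 79.99 and 130.1 FPKM in those labelled Adar1-/-. Srsf1 had 140.4 FPKM in liver and 154.7 FPKM in embryos in the libraries labelled Adar1-/- Mavs-/-, and 168.9 and 223.4 FPKM in those labelled Adar1-/-. Hnrnph1 had 140.4 FPKM in liver and 110.3 FPKM in embryos in the libraries labelled Adar1-/- Mavs-/-, and 97.7 and 113.9 FPKM in those labelled Adar1-/-. Hnrnph3, read on assembled isoforms in liver, had 3.67 FPKM in liver and 2.15 FPKM in embryos in the libraries labelled Adar1-/- Mavs-/-. In those labelled Adar1-/- it had 4.62 FPKM in liver and was listed at 0 in embryos. These are FPKM as deposited, without scaling between the tissues. The differences of all genes between the tissues were not computed. Tissue, age and strain label differ together, so their parts cannot be told apart.

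**Figure D5:**
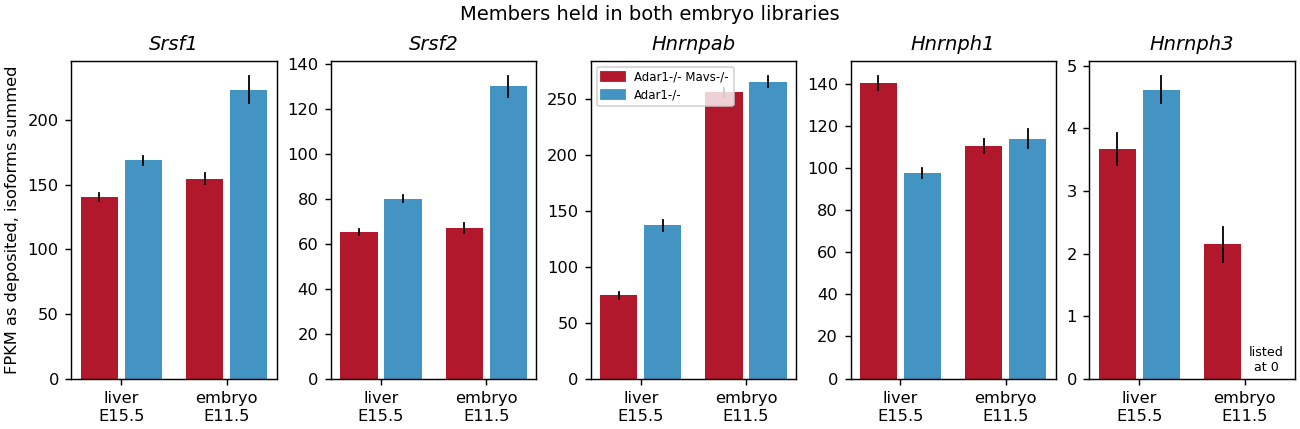
FPKM as deposited of the 5 members held in both embryo libraries, in all 4 libraries, with the deposited bounds as lines and bars from 0 on an axis of its own for each gene. Hnrnpab is lower in both liver libraries (74.6 and 137.0 FPKM) than in both embryo libraries (255.8 and 265.4 FPKM).

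The machinery around these proteins was read as lists of related genes. Of the 13 counted kinases, phosphatases and the import receptor that act on SR proteins, none was 2-fold higher or lower in liver and the median was 0.12. On reference isoforms alone 1 of 11 counted was 2-fold higher and 2 were lower. The shares of all genes in that setting were not computed. Counts on reference isoforms, here and for the lists below, therefore have no background beside them. The highest was Tnpo3, which imports phosphorylated SR proteins into the nucleus, with 52.5 FPKM (51.2 to 53.7) in the library labelled Adar1-/- Mavs-/- and 31.9 FPKM (31.0 to 32.7) in that labelled Adar1-/- (0.70). The lowest was Clk2, a kinase of SR proteins, with 4.86 and 9.47 FPKM in these libraries (-0.84 by FPKM, -0.04 by fragment amount). In embryos Clk4 was the gene of this list that was held, with 4.27 FPKM in the Adar1-/- Mavs-/- library and 22.6 FPKM in the Adar1-/- library (-1.82 by FPKM, -0.14 by fragment amount).

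The 26 counted SR-related and Tra2 proteins had a liver median of -0.23, with 2 genes 2-fold higher and 1 lower. The higher were Rbm39 (1.76 by FPKM, -0.39 by fragment amount) and Ppig (1.19 by FPKM, 1.37 by fragment amount, 0.41 on reference isoforms alone), and the lower was Scaf1 (-1.29 by FPKM, -0.25 by fragment amount). On reference isoforms alone the median of 22 counted genes was -0.57, with 0 higher and 4 lower, and that of all genes was not computed. The splicing activators Tra2a and Tra2b were nearly level, at 0.14 and 0.02. The 42 other splicing regulators of hnRNP type had a median of -0.16, with 1 higher and 3 lower. Among the lower were the poly(C)-binding protein gene Pcbp1, with 17.6 FPKM in the library labelled Adar1-/- Mavs-/- and 36.7 FPKM in that labelled Adar1-/- (-1.03 by FPKM, -0.91 by fragment amount), and Sfpq, with 9.21 and 133.9 FPKM, whose log2 ratio was -3.73 by FPKM and 0.07 by fragment amount. The core spliceosome (56 counted) had a median of -0.03, with 4 genes higher and 4 lower, and on reference isoforms alone (53 counted) -0.22, with 1 higher and 7 lower.

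The NMD and exon junction complex genes (21 counted) had a liver median of -0.22 and none was 2-fold higher. The 1 gene 2-fold lower was Upf1, the central helicase of NMD, with 5.29 FPKM (5.02 to 5.57) in the library labelled Adar1-/- Mavs-/- and 12.4 FPKM (12.02 to 12.7) in that labelled Adar1-/- (-1.09 by FPKM, -0.81 by fragment amount). The 15 genes of mRNA export had a median of -0.06, with 1 higher (Sarnp, 1.31 by FPKM and -0.68 by fragment amount) and 1 lower (Thoc2, -2.01 by FPKM and -0.18 by fragment amount). On reference isoforms alone 2 NMD and exon junction complex genes were 2-fold lower, and of the export genes 1 was higher and 3 were lower.

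Cell type markers also differed between the liver libraries. All 8 muscle markers counted were at least 2-fold lower, with a list sum of 9.69 FPKM in the library labelled Adar1-/- Mavs-/- and 156.6 FPKM in that labelled Adar1-/-, with 1 of its 10 held genes listed at 0 in both. The 10 proliferation markers had a median of 0.47 and summed to 1241 FPKM in the library labelled Adar1-/- Mavs-/- and 747.3 FPKM in that labelled Adar1-/-. The 8 counted macrophage markers had a median of 0.70. The 9 held, of which 1 was listed at 0 in 1 library, summed to 206.5 and 155.3 FPKM. The 6 erythroid markers had a median of 0.15 and sums of 2359 and 1908 FPKM, and the 10 hepatocyte markers a median of 0.01. At least 2-fold higher were 3 macrophage, 1 proliferation and 1 erythroid marker, where 2.71% of all genes were. Of all genes, 6.74% were 2-fold lower. In embryos the 4 proliferation markers held had a median of -0.45 and sums of 149.9 FPKM in the Adar1-/- Mavs-/- library and 276.8 FPKM in the Adar1-/- library. The 3 erythroid markers held in embryos had a median of 0.23, and the 2 muscle markers -0.74. The part of these cell types in the differences of SR proteins and hnRNPs was not tested.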

How the data were processed

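The deposited tables hold FPKM per isoform with confidence bounds and a status, made by the authors with Cufflinks, per the file headers. Per the submitters' processing notes, the tools include Cufflinks 2.2.1 and TopHat 1.4.0, and the build is mm9. The deposited coverage, a read depth per isoform, served as a measure of depth alone. The sources used here do not give read totals, strandedness or the treatment of multiply mapped reads, so overlapping antisense genes may share reads.

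Ensembl transcript identifiers were matched to GENCODE M21 symbols (86.7% in the liver tables, 88.7% and 90.2% in the embryo Adar1-/- Mavs-/- and Adar1-/- tables). Other isoforms took the symbol that they overlap most in their Cufflinks gene. FPKM were summed per symbol, and a factor setting the median log2 ratio of genes of at least 5 FPKM in both libraries to 0 was applied (6881 liver and 974 embryo genes). The pseudocount was 1, which understates differences of low genes. The fold and factor steps were tested on simulated data. Members and lists were chosen with earlier results of these data known. Liver members given with bounds are the 6 highest and 6 lowest ratios and the 5 highest levels, with Srsf2 and Srsf6 added after their values were seen. Isoforms named hold 50% of a gene of at least 5 FPKM or differ by 20 percentage points in share, and others were added as comparisons after their values were seen. Related genes named are among the 3 highest or lowest of their list of at least 5 FPKM, except Scaf1, Tra2a and Tra2b, which were chosen after their values were seen. With 1 library per group nothing was tested, and analyses used Python 3.11.15 with pandas 2.3.3.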

Additional observations from a re-analysis of the deposited data

Results flagged for a closer look

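Hnrnpab lay on opposite sides of 0 in the tissues. Its log2 ratio was -0.88 in liver, the library labelled Adar1-/- Mavs-/- over that labelled Adar1-/-, and 0.36 in embryos. The difference between the tissues was not tested, since each rests on 1 library per group. In embryos the sign depends on the scaling, at -0.05 with FPKM as deposited and -0.57 as TPM, and in liver it was 0.058 with isoforms of status OK alone.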

How the results depend on the processing

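No paired analysis was possible because each group has 1 library and the labels carry no replicate numbers, and no library could be left out. By fragment amount, the related liver genes Sfpq (0.07), Rbm39 (-0.39), Sarnp (-0.68) and Prpf38a (-0.60) had the opposite sign to their FPKM ratios. In liver, where the median log2 ratio of the members was -0.27 with 3 genes 2-fold lower, TPM over the named genes gave -0.57 with 5 lower (SR proteins -0.50, hnRNPs -0.59), isoforms of status OK alone gave 0.058 (SR proteins 0.39, hnRNPs 0.031), and fragment amounts gave 0.10 (SR proteins -0.071, hnRNPs 0.22). Before the pseudocount, TPM shifts liver log2 ratios by -0.32, and genes of low values shift less. As TPM, 1492 of all 12787 liver genes counted were 2-fold lower, and their median was -0.37. Leaving out identifiers outside the annotation gave -0.11 for SR proteins and -0.38 for hnRNPs, and members read on the same isoforms gave 1 gene 2-fold lower and -0.41 for SR proteins. With isoforms of status OK alone, the NMD and retained-intron share was 19.8% (27.0% with all isoforms) in the library labelled Adar1-/- Mavs-/- and 30.1% (33.4% with all) in that labelled Adar1-/-. In embryos, where the median was 0.13 and no member was 2-fold, FPKM as deposited gave -0.29, TPM gave -0.81 with 2 genes lower, status OK alone gave 0.61 (2 genes), fragment amounts gave 0.25, and leaving out identifiers outside the annotation gave 0.35. Before the pseudocount, embryo log2 ratios shift by -0.42 as deposited, -0.94 as TPM and 0.07 with an upper quartile factor, and genes of low values shift less. As TPM, 950 of all 1801 embryo genes counted were 2-fold lower, and their median was -1.04. With FPKM as deposited the median of all these genes was -0.46. With reference isoforms alone, 1 of 5 members in the libraries labelled Adar1-/- Mavs-/- and 0 of 5 in those labelled Adar1-/- had a higher FPKM in liver than in embryos, against 2 and 1. A pseudocount of 0.1, an upper quartile factor, a minimum of 5 FPKM and no minimum gave liver medians from -0.29 to -0.23 with 3 genes 2-fold lower, and reference isoforms alone gave -0.28 over 24 genes, with 2 lower and 1 higher (Hnrnpa3, 1.31). The values of all genes on reference isoforms alone were not computed. The alternatives on fragment amounts, identifiers and same isoforms were chosen after seeing the data. Depth is known only as coverage per FPKM, and FPKM bounds cover no difference between animals.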
